A study of Mus musculus with 4 samples.

Results

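The 10 genes described here encode ligands, receptors and an inhibitor of the activin and Tgf-beta pathways, and they were taken by name (Inhba, Inhbb, Fst, Acvr1b, Acvr2a, Acvr2b, Tgfb1, Tgfb2, Tgfb3 and Tgfbr2) from the 22072 genes in the tables. RNA was sequenced from molar mesenchyme, the connective tissue under the tooth epithelium, that was cut by laser from frozen head sections of mouse embryos at embryonic day 14. The libraries were Msx1+/- (control) upper molar, Msx1+/- lower molar, Msx1-/- (mutant) upper molar and Msx1-/- lower molar, so every group holds 1 library. All animals were of a mixed background and each carried at least 1 Msx1 mutant allele, which the labels do not name, and the RNA of a group came from pooled tissue of 3 pairs. Per the labels no animal without a mutant allele was included, although the title of the series speaks of wild type.

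Activins are dimers of inhibin beta subunits. They bind a type II receptor (Acvr2a or Acvr2b), which recruits the type I receptor Acvr1b, and Smad2 and Smad3 carry the signal to the nucleus. Tgf-beta ligands use Tgfbr2 and Tgfbr1 and the same Smads, and are stored outside the cell in an inactive, matrix-bound form. In the mouse tooth, Inhba is made by the dental mesenchyme, and embryos without it lack incisors and lower molars but form upper molars. Follistatin, the product of Fst, binds activin and blocks it.

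Levels are FPKM (sequenced fragments of a transcript, scaled to its length and to all mapped fragments), summed over the transcripts of a gene. Sets of 4 values are listed as control upper, then control lower, then mutant upper, then mutant lower molar. Differences are on the log2(FPKM + 1) scale, which understates changes of weakly expressed genes, and a gene was counted as higher or lower only where the difference was at least 1. With 1 library in a group there is no replicate error and no test, and upper and lower molars may share embryos. Summed coverage over transcripts ranged from 264 to 410 megabases. A mean level of 1 FPKM or more over the libraries was reached by 10536 genes, called measured below. Their median genotype difference was -0.03 in upper but -0.39 in lower molars, so values relative to that median are given where it matters. Msx1 itself was at 170, 184, 126 and 85.9 FPKM, which checks no label because the deleted part of the gene is not named. All 14 mesenchyme markers were measured, with Vim between 142 and 219 FPKM and Col1a1 between 144 and 204 FPKM. Not all markers were this steady. By the same threshold 3 of the 14 fell in both jaws and 0 rose, against a fall in both jaws in 1.59% of all measured genes. Named after their values were seen, these were Dlx2 (-1.87 upper, -3.28 lower), Runx2 (-1.39, -2.05) and Prrx2 (-1.62, -1.48). Taking lower molars by themselves, 6 of the 14 fell, these 3 included, against 9.43% of all measured genes. How far a change in the mesenchyme itself enters the levels of the members was not tested. The RNA is from whole pieces of tissue, in which fewer cells of a type and less RNA per cell cannot be told apart.

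Inhba, the beta A subunit of activin (chromosome 13, 16106308 to 16119044, mm9), was by far the most abundant member in the control libraries. It stood at 174 and 138 FPKM in control upper and lower molars and at 23.9 and 28.5 FPKM in the mutant ones. Both mutant values lay far below both control values, 7.26-fold lower in upper and 4.86-fold lower in lower molars. Mutant minus control, this is a difference of -2.81 (upper) and -2.24 (lower), or -2.78 and -1.85 relative to the median of all genes. Among the 10536 genes Inhba ranked 144 and 190 by level in the control libraries and 1015 and 633 in the mutant libraries, so it was still the highest member after the fall. The reads behind these values summed to between 39745 and 277735 sequenced bases (coverage times transcript length) per library, which makes Inhba the most deeply covered ligand gene of the set in every control library.

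Tgfb1, the ligand Tgf-beta 1 (chromosome 7, 26472021 to 26490015), was the other member counted as lower. Its level was 12.4, 9.14, 3.17 and 2.19 FPKM. Control values lay above mutant values in either jaw, 3.92-fold in upper and 4.18-fold in lower molars. Its differences were -1.69 (upper) and -1.67 (lower), or -1.66 and -1.28 relative to the median. It rested on fewer reads than Inhba, with 4233 to 27206 sequenced bases per library.

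**Figure D1:**
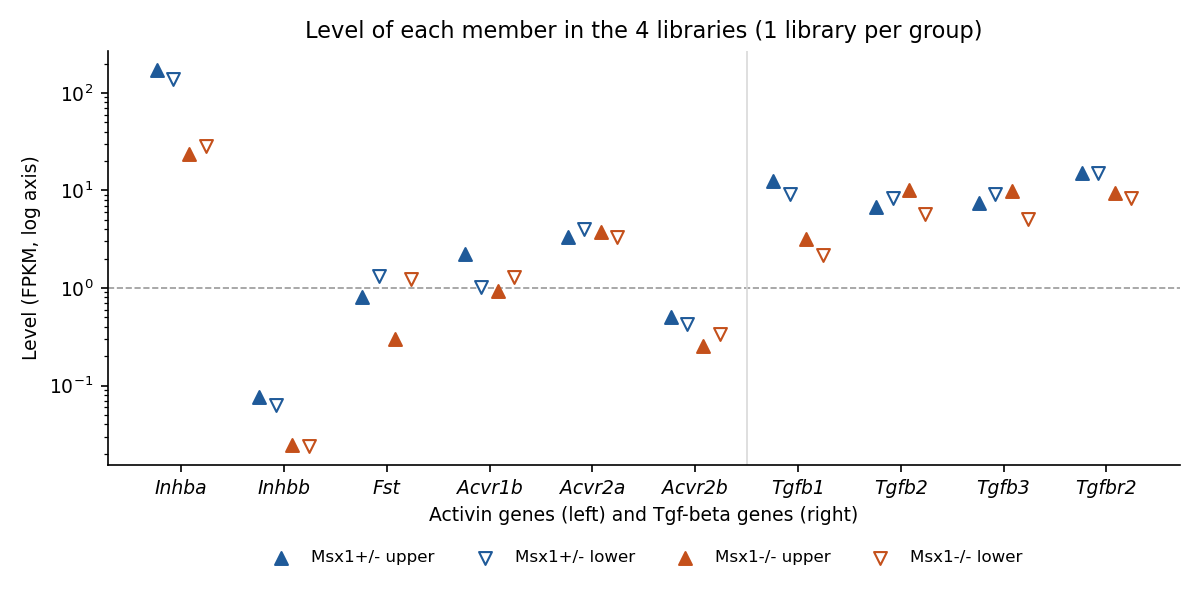
Level of each of the 10 genes in FPKM on a log axis, with 1 point per library (blue control, orange mutant, upward filled triangles upper molar, downward open triangles lower molar) and a dashed line at 1 FPKM. For Inhba and Tgfb1 both control points lie above both mutant points, while the points of Tgfb2 and Tgfb3 from the genotypes are mixed.

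Inhba and Tgfb1 were the 2 of 7 measured members that were lower in both jaws, where 1.59% of all measured genes were. Taken by jaw, the same 2 were lower in upper molars (3.26% of all genes) and in lower molars (9.43% of all genes). No member was higher in upper molars (1.07% of all genes), in lower molars (0.864%) or in both (0.399%). The median difference of the 7 was -0.61 in upper and -0.73 in lower molars, against -0.03 and -0.39 over all genes. Inhbb, Fst and Acvr2b had a mean below 1 FPKM, and none of them was counted on this scale. After rescaling the libraries by median of ratios, Inhba and Tgfb1 were again the only members counted, and over all genes 75 were then higher and 121 lower in both jaws, against 42 and 168 on the deposited values.

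The RefSeq start regions of Inhba and Tgfb1 are printed because these 2 genes moved together, beside that of Tgfb2, which did not. Each run holds the 250 bases before the annotated start, in the direction of the gene, from build GRCm38.p6 (Inhba chr13:16011601-16011850 on the plus strand, Tgfb1 chr7:25686752-25687001 on the plus strand, Tgfb2 chr1:186705990-186706239 on the minus strand). Capitals mark matches on either strand to 7 short motifs.
Inhba: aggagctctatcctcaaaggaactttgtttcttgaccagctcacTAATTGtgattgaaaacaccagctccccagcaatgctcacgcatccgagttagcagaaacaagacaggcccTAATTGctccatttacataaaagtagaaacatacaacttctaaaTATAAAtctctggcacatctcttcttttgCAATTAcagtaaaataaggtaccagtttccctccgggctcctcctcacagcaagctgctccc
Tgfb1: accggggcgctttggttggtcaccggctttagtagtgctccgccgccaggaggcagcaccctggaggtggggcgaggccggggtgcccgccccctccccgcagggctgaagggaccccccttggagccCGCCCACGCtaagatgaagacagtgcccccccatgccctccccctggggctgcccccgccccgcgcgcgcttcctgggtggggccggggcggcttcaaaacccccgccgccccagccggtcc
Tgfb2: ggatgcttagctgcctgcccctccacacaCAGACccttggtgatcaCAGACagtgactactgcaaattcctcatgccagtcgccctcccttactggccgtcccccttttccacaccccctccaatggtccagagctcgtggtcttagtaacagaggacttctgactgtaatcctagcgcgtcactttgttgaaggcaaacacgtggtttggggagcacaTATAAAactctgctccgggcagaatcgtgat
The motifs searched were an AP-1 site (TGANTCA), a cyclic AMP response element (TGACGTCA), an Egr site (GCGNGGGCG), a Smad box (CAGAC), the homeodomain core that Msx proteins share with other homeodomain factors (TAATTG), a Lef/Tcf core (CTTTGAA) and a TATA box (TATAAA). In the printed runs no matches overlapped. The search covered these 250 bases and 50 after the start, in the members and in all promoters of the table.

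The Inhba region held 3 homeodomain cores, at 206, 135 and 62 bases upstream of the start, and a TATA box at 91 bases. At least 1 such core was present in 8% of 32851 promoters of this length, and 3 or more in 17 of them (0.0517%). The cut of 3 was taken from the Inhba region after its letters had been seen, so this share tests nothing. Promoters were not matched for base content. The Tgfb1 region, 77% of whose bases are G or C against 47.7% for Inhba, held 1 Egr site at 122 bases upstream, a motif found in 5.55% of promoters. The Tgfb2 region had a pair of Smad boxes, a motif found in 49.6% of promoters, and a TATA box at 31 bases (13.6% of promoters). No region of the 8 members with an entry in the table held an AP-1 site (7.81% of promoters), a cyclic AMP response element (1.79%) or a Lef/Tcf core (5.14%). Among the other members with an entry, Acvr1b had 1 Egr site and Acvr2a, Acvr2b and Tgfbr2 had 1 Smad box each. These are matches of letters and say nothing on binding.

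The remaining Tgf-beta ligand genes did not follow Tgfb1. Tgfb2 (chromosome 1, 188447065 to 188529871) was at 6.70, 8.28, 10.2 and 5.78 FPKM, and Tgfb3 (chromosome 12, 87397693 to 87419991) at 7.38, 9.20, 9.94 and 5.14 FPKM. For either gene the mutant upper library was the highest and the mutant lower library the lowest, so the control values lay between the mutant ones. The difference of Tgfb2 was 0.54 in upper molars and -0.45 in lower ones, and that of Tgfb3 0.39 and -0.73, all below the threshold. Relative to the median of all genes the lower molar values were -0.07 for Tgfb2 and -0.34 for Tgfb3.

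The make-up of the Tgf-beta ligand pool differed between the control and the mutant libraries, a comparison within each library that no rescaling between libraries can alter. Tgfb1 gave 46.9% of the summed Tgfb1, Tgfb2 and Tgfb3 FPKM in control upper and 34.3% in control lower molars. In the mutant it gave 13.6% in upper and 16.7% in lower molars. Tgfb1 was the highest of the 3 in control upper molars, level with Tgfb3 in control lower molars (9.14 against 9.20 FPKM), and the lowest in the mutant libraries. The summed level was 26.5, 26.6, 23.3 and 13.1 FPKM, so in upper molars the total was close between genotypes while its parts were not. The number of reads is not given in the tables, so no counting interval is attached to these shares.

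Tgfbr2, the type II receptor of Tgf-beta (chromosome 9, 115996813 to 116084481), was the most abundant receptor gene of the set, at 15.0, 15.0, 9.50 and 8.28 FPKM. The control libraries were alike and both lay above the mutant ones, but the differences of -0.61 and -0.78 were below the threshold. The tables split this gene into 2 RefSeq transcripts, of 4788 and 4713 bases, that differ by 75 bases in length. The longer one was at 9.87, 7.55, 4.15 and 3.14 FPKM, with differences of -1.08 (upper) and -1.05 (lower). The shorter one was at 5.16, 7.42, 5.36 and 5.14 FPKM and differed by 0.05 and -0.46. The longer transcript thus made up 65.7% and 50.4% of Tgfbr2 in the control libraries and 43.6% and 37.9% in the mutant libraries. The control libraries were 15.2 percentage points apart in this share, more than the 6.8 points between control lower and mutant upper molars. Reads over the sequence common to both transcripts were assigned by the authors' software, so the split is less certain than the sum.

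**Figure D2:**
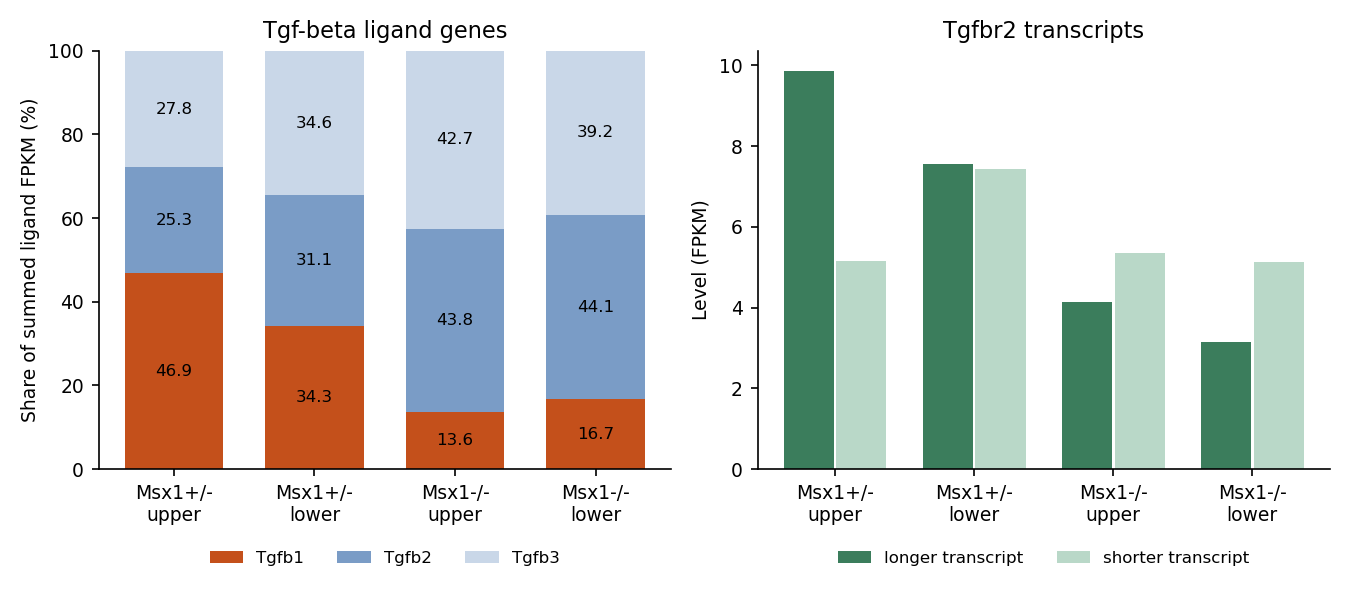
Left, stacked bars of the share of Tgfb1, Tgfb2 and Tgfb3 in their summed FPKM, in percent, for each library. Right, bars of the level in FPKM of the longer and shorter Tgfbr2 transcripts. Tgfb1 falls from 46.9% and 34.3% in the control libraries to 13.6% and 16.7% in the mutant ones, and the longer Tgfbr2 transcript is above the shorter one in the control libraries and below it in the mutant ones.

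Receptor genes of activin were low in all libraries and not counted in any comparison. Acvr2a, a type II receptor (chromosome 2, 48669629 to 48758784), was at 3.32, 4.02, 3.72 and 3.37 FPKM, and its genotype differences were 0.13 and -0.20. It was the steadiest measured member, with the genotypes overlapping. Acvr2b, the other type II receptor (chromosome 9, 119311619 to 119342624), was at 0.499, 0.431, 0.254 and 0.335 FPKM. Its level rested on 470 to 887 sequenced bases per library, which is only a few reads. Acvr1b, the type I receptor (chromosome 15, 101004556 to 101043032), was at 2.24, 1.03, 0.933 and 1.29 FPKM. Only the control upper library stood above the others for Acvr1b, with differences of -0.74 (upper) and 0.17 (lower).

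The inhibitor gene Fst (chromosome 13, 115242470 to 115248938) was at 0.817, 1.34, 0.30 and 1.23 FPKM. Within each genotype the lower molar was higher than the upper one, and the genotypes overlapped. Fst had differences of -0.48 (upper) and -0.07 (lower), and rested on 761 to 2657 sequenced bases per library. The ratio of Inhba to Fst was 213 and 103 in control upper and lower molars and 79.8 and 23.1 in mutant ones, so within every library the ligand gene far exceeded the inhibitor gene. Inhbb, the beta B subunit (chromosome 1, 121312042 to 121318825), was near the limit of detection, at 0.0766, 0.0628, 0.0248 and 0.0241 FPKM from 94.9 to 341 sequenced bases. Almost all beta subunit RNA was therefore Inhba, and no direction can be read for Inhbb at this depth.

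**Figure D3:**
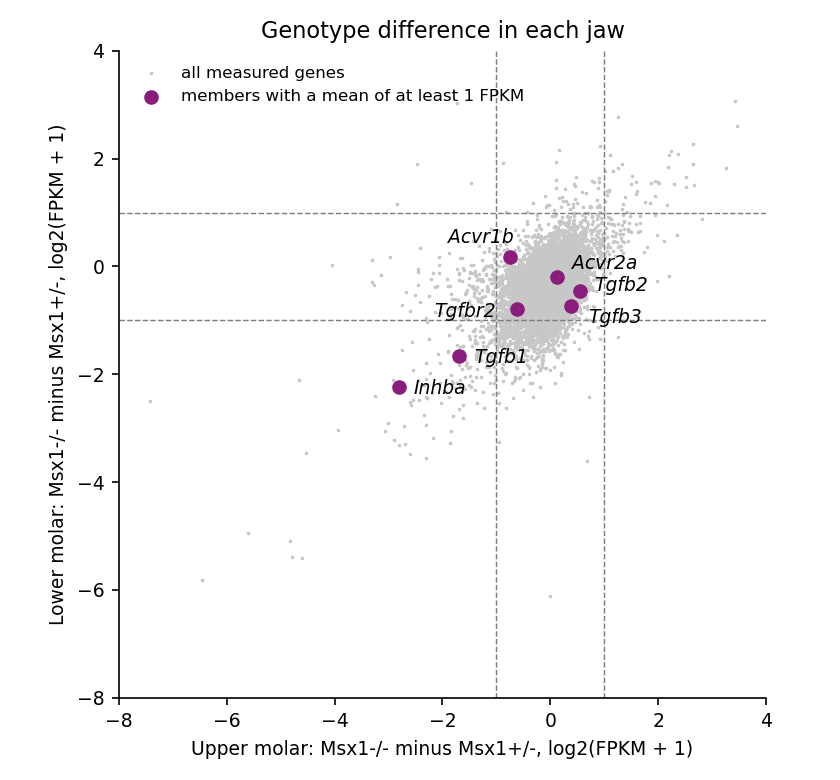
Mutant minus control difference on the log2(FPKM + 1) scale in upper (horizontal) and lower (vertical) molars, with each measured gene in grey, the 7 measured members in purple and dashed lines at -1 and 1. Inhba (-2.81 and -2.24) and Tgfb1 (-1.69 and -1.67) lie beyond the threshold on both axes, and Tgfb2 and Tgfb3 lie right of 0 and below it.

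The question of whether the jaws differ bears on this pathway because lower and upper molars differ in their need for Inhba. Upper minus lower, Inhba differed by 0.33 in control and -0.24 in mutant molars, well within the threshold. Of the 7 measured members, 0 were counted between the jaws in either genotype. Over all genes, 1.48% were higher in control upper and 0.218% in control lower molars, and 3.22% were higher in mutant upper and 0.418% in mutant lower molars. The largest jaw differences of members were those of Tgfb3 (0.83) and Tgfb2 (0.72) in the mutant and of Acvr1b (0.67) in the control, and Fst differed by -0.78 in the mutant. The median of all genes was 0.27 between the mutant jaws, and relative to it Tgfb3 differed by 0.56, Tgfb2 by 0.45 and Fst by -1.05. Genotype and jaw comparisons share libraries, so these values are not independent of the genotype differences.

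Pathway genes outside the set were drawn from 5 lists. Each gene counted once, 58 of 78 were measured, of which 6 were lower and 0 higher in both jaws. Over all measured genes 1.59% were lower and 0.399% higher. All 6 are on the list of response genes, and they are the same 6 that are given for that list below. Among other ligands of the branch and extracellular antagonists 4 of 16 were measured and 0 were counted in either jaw. Fstl1, a follistatin-like secreted protein gene, was the most abundant of them (98.7, 122, 182 and 145 FPKM, differences 0.87 and 0.25). Inha, whose alpha subunit turns a beta subunit into inhibin, was at 2.84, 2.0, 3.50 and 2.73 FPKM. Fstl3 (0.577, 1.28, 1.28 and 1.03 FPKM) and Gdf1 (1.90, 2.52, 2.95 and 2.23 FPKM) were the others measured.

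In the list on storage, release and binding of the ligands (14 of 17 measured), which also holds the focal adhesion gene Tgfb1i1, 0 were counted in both jaws. The list's medians of -0.08 and -0.41 were close to those of all genes. The integrin gene Itgav, whose product activates latent Tgf-beta, was at 11.7, 14.1, 6.28 and 3.84 FPKM, and was lower in lower molars only (-0.81 and -1.64). Tgfb1i1, a focal adhesion gene named for its induction by Tgf-beta 1, was at 39.0, 24.4, 18.6 and 11.8 FPKM. It was counted as lower in upper molars only (-1.03 and -0.99). After rescaling by median of ratios its differences were -0.99 and -0.53, and it was then counted in neither jaw. The fibrillin gene Fbn2 went the other way (20.1, 26.7, 39.1 and 43.3 FPKM, differences 0.93 and 0.68) and was counted as higher in both jaws after rescaling to a common upper quartile. Furin, a protease that matures the ligand precursors, was at 12.7, 7.85, 8.89 and 4.33 FPKM.

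Of the other receptors and co-receptors (8 of 10 measured) 0 were counted in both jaws, with medians of -0.44 and -0.61. Tgfbr1, the type I partner of Tgfbr2, was at 13.5, 10.9, 8.27 and 3.92 FPKM and lower in lower molars only (-0.64 and -1.27). Relative to the median of all genes its differences were -0.61 and -0.89, both below the threshold in size. In lower molars 9.43% of all measured genes were lower. The pseudoreceptor gene Bambi differed by -0.81 and -0.67 (1.99, 1.93, 0.704 and 0.840 FPKM), Acvr1 by -0.38 and -0.81 and Bmpr2 by -0.79 and -0.33. Bambi reached a mean of 1 FPKM only through the control libraries. Of the Smads and their cofactors (13 of 14 measured) Skil alone was counted in both jaws, where 1.59% of all measured genes were lower. The medians of this list were -0.22 and -0.85. Skil encodes a Smad corepressor that the pathway itself induces, and was at 14.6, 11.3, 4.29 and 2.49 FPKM (-1.56 and -1.82). Pmepa1 (-0.92 and -1.16), the inhibitory Smad gene Smad7 (-0.75 and -0.93) and the ubiquitin ligase gene Smurf1 (-0.51 and -0.85) had negative differences in both jaws, as did the median of all genes. Relative to that median their lower molar differences were -0.77, -0.54 and -0.46. Pmepa1 was at 11.6, 10.1, 5.65 and 3.97 FPKM and Smad7 at 9.14, 6.36, 5.03 and 2.86 FPKM.

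Response genes in common use for Tgf-beta and activin, members left out, had 6 of 22 measured genes lower and 0 higher in both jaws, where 1.59% of all genes were lower. Their median differences were -0.50 (upper) and -0.92 (lower). The values of Timp1, Cdkn1a and Acta2 were known when the list was written, and many of its genes also respond to other signals. Timp1 and Cdkn1a are among the 6, so the count was in part set by the choice of the list. Cdkn1a reached a mean of 1 FPKM only through the control libraries. No conclusion is drawn from the count beside the share of all genes. Klf10, an early Tgf-beta response gene for a zinc finger repressor, was at 17.6, 16.8, 1.86 and 0.814 FPKM (-2.70 and -3.30). The metalloproteinase inhibitor gene Timp1 (27.8, 38.8, 3.14 and 3.00 FPKM), the CDK inhibitor gene Cdkn1a (5.86, 7.91, 0.493 and 0.763 FPKM) and the repressor gene Bhlhe40 (9.85, 8.67, 2.11 and 0.406 FPKM) were lower as well. Skil and Tsc22d1, the latter named after its values were seen (123, 146, 53.5 and 65.0 FPKM), complete the 6, and rescaling by median of ratios removed Tsc22d1 from the count.

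The same list held genes that did not move this way. Named after their values were seen, the fibronectin gene Fn1 was at 56.5, 38.3, 77.8 and 43.9 FPKM, Tgfbi at 10.1, 11.0, 8.35 and 14.9 FPKM and Ctgf at 6.08, 3.98, 3.82 and 5.99 FPKM. The smooth muscle actin gene Acta2 was higher in mutant upper molars alone (2.53, 4.18, 15.2 and 3.57 FPKM).

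**Figure D4:**
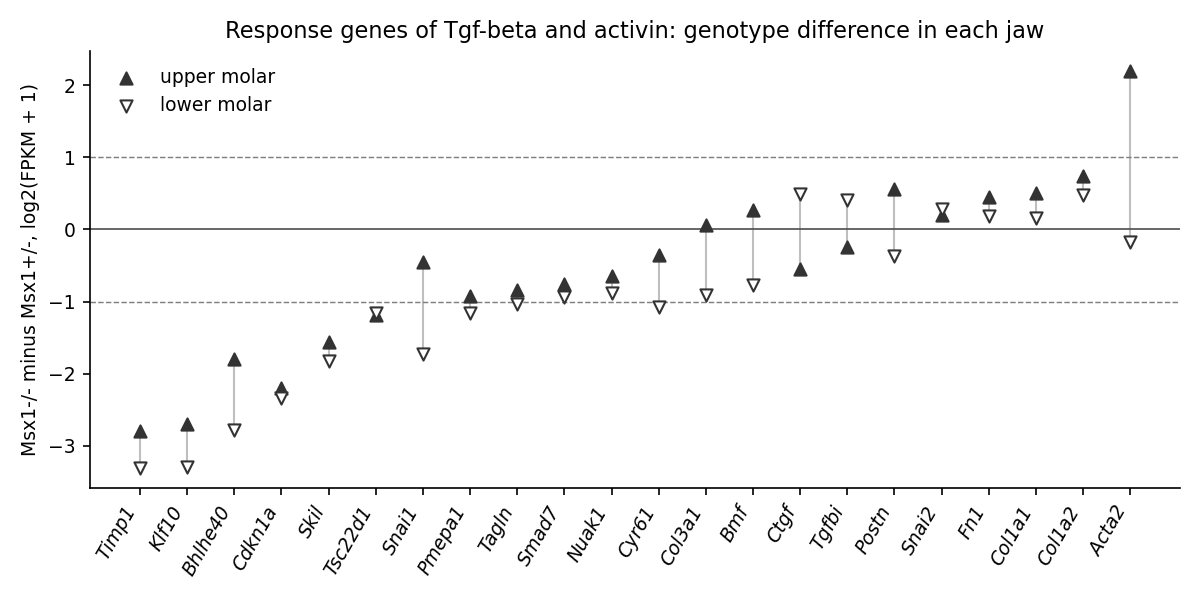
Mutant minus control difference on the log2(FPKM + 1) scale for the 22 measured response genes outside the set, with upward filled triangles for upper and downward open triangles for lower molars and dashed lines at -1 and 1. Timp1, Klf10, Bhlhe40, Cdkn1a, Skil and Tsc22d1 lie below -1 in both jaws, and Acta2 lies above 1 in upper molars alone.

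By the distance between profiles over the 4 libraries, each centred on its own mean, the genes most like Inhba were Tnfrsf12a (0.33), Penk (0.35), Etv4 (0.37), Spry4 (0.38) and Cxxc5 (0.44). Tnfrsf12a, a receptor of the tumour necrosis factor family, was at 7.82, 8.55, 0.463 and 0.604 FPKM. Tnfrsf12a and Etv4 reached a mean of 1 FPKM only through the control libraries, so the filter in part set their place here. Penk, the enkephalin precursor gene, was at 99, 108, 17.6 and 18.6 FPKM. The genes most like Tgfb1 were Ccnd2 (0.11), Skil (0.16), Lgals7 (0.17), Slc16a1 (0.23) and Cgnl1 (0.24). The D cyclin gene Ccnd2 was at 136, 105, 41.2 and 29.1 FPKM, and the galectin gene Lgals7 at 21.8, 14.8, 5.09 and 4.35 FPKM. With 4 libraries, many genes that were low in the mutant have profiles of this kind.

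Markers of other cells were set beside these values. Macrophages make Tgf-beta 1, and of their markers 0 of 9 measured were counted in either jaw, with none of the 13 at 0 in any library. Their summed level was 28.5 and 39.2 FPKM in the control and 37.9 and 46.8 FPKM in the mutant libraries. Single markers went either way, with Cd68 at 3.38, 2.60, 1.88 and 2.10 FPKM (named after its values were seen), and the part of macrophage RNA in the Tgfb1 levels was not tested. Endothelial markers (11 of 13 measured) had 0 genes lower in both jaws, at a summed 81.6 and 75.8 against 64.3 and 58.9 FPKM. Epithelial markers (7 of 12 measured, 1 higher in both jaws) summed to 28.2 and 44.8 FPKM in the control and 49.9 and 70.8 FPKM in the mutant libraries, with Shh and Cldn4 at 0 in the control ones. The part of epithelial RNA in the differences of the members was not tested. Of pericyte and smooth muscle (4 measured) and erythroid markers (7 measured) 0 were counted in both jaws, of osteoblast markers (6 measured) 2 were higher and 1 lower, and of cartilage markers (3 measured) 1 was higher. Immediate-early genes, which growth factor signals induce within minutes, had 5 of 7 measured lower in both jaws, against 1.59% of all measured genes. The 5 became 4 after rescaling by median of ratios, to a common upper quartile or to a common total. Egr1 was at 167, 113, 2.47 and 2.72 FPKM. Egr2 (32.0, 34.1, 0.156 and 0.026 FPKM) and Egr3 (113, 60.7, 0.294 and 0.097 FPKM) reached a mean of 1 FPKM only through the control libraries. The part of immediate-early genes in the levels of Inhba and Tgfb1 was not tested.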

How the data were processed

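cDNA of laser-captured molar mesenchyme was made with NuGEN's Ovation v2 kit for RNA-seq, per the labels' protocols. Reads were aligned to mm9 with Bowtie 0.12.7 and TopHat 1.4.1, per the submitters' processing notes. The authors deposited FPKM values and a coverage signal for 28107 RefSeq transcript entries per library, in tables of Cufflinks layout (its version: not given in the sources used here). Coverage was FPKM times a constant in each library.

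FPKM was summed per gene name. Genes with a failed estimate in any library (66) and small RNAs (720 names) were left out, and 10536 genes averaging 1 FPKM or more were kept. All 11 transcript entries of the members carried the status OK. Values were used without rescaling, as log2(FPKM + 1), and a difference of at least 1 was counted. There is 1 library per group, so nothing was tested in the main results. Positions in the tables start from 0 and were shifted by 1.

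The members, gene lists and rules were chosen with earlier results of these data known. Genes named come from the members, Msx1, the 4 largest mean genotype differences of each pathway list and of the immediate-early genes, the 2 most abundant markers of each cell type and the 5 nearest profiles to Inhba and Tgfb1. Promoters are from RefSeq (GRCm38.p6, 8 of 10 members matched by symbol). Alternatives were other pseudocounts, filters, scalings, transcripts and thresholds, and limma 3.58.1 in R 4.3.3. Computations, in Python 3.11.15 with pandas 2.3.3, were tested on simulated data.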

Additional observations from a re-analysis of the deposited data

Results flagged for a closer look

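Tgfb3 was picked out because its genotype difference had opposite signs in the jaws, 0.39 in upper and -0.73 in lower molars, which is 1.12 apart. Of all genes, 728 (6.91%) had genotype differences at least 1 apart, and the difference between the jaws was not tested. After rescaling by median of ratios the values of Tgfb3 were 0.42 and -0.31.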

How the results depend on the processing

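Inhba was counted as lower in both jaws under every alternative run, with differences from -2.85 to -2.63 in upper and -2.28 to -1.73 in lower molars. Tgfb1 ranged from -1.94 to -1.09 and from -2.01 to -0.98, and missed the count in lower molars with a pseudocount of 5 alone, where 1 member was lower in lower molars and 1 in both jaws. With a 1.5-fold threshold 4 members were lower in upper molars, 4 in lower molars and 3 in both. In the jaw comparisons 1 was higher in control upper and 2 in mutant upper molars. Of all 10536 measured genes, 963 were lower in upper and 3363 in lower molars at that threshold. Those higher numbered 432 in control upper and 1853 in mutant upper molars. With a pseudocount of 0.1, 1 member was higher in control upper molars (Acvr1b), where 231 of 10536 genes were. Acvr1b (-1.18) and the weakly expressed Fst (-1.20) then passed the threshold between genotypes in upper molars, where 494 of 10536 genes were lower. Using the highest transcript of each gene, Tgfbr2 was also counted in both jaws, where 194 of 10386 genes were lower. No member reversed a counted difference. The sign of the uncounted lower molar difference of Tgfb2, Acvr2a, Acvr2b and Fst did turn with rescaling, with ranges of -0.51 to 0.00, -0.25 to 0.21, -0.29 to 0.04 and -0.11 to 0.23. The cause of these changes was not tested. Over all genes, those lower and higher in both jaws numbered 168 and 42, but 280 and 87 with a pseudocount of 0.1, 66 and 14 with 5, 106 and 24 among genes averaging 5 FPKM or more, 599 and 140 at 1.5-fold, 121 and 75 by median of ratios, 110 and 86 by a common upper quartile and 119 and 76 by a common total.

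In a limma fit with genotype and jaw as terms, the jaws stand in for replicates and every gene was given the same standard error of 0.30. Its mutant minus control differences were -2.52 for Inhba, -1.68 for Tgfb1 and -0.70 for Tgfbr2, and the median over all genes was -0.22. That error is no spread between animals, so the fit is given by its differences alone. No paired analysis was possible because the libraries carry no replicate numbers and leaving out a library leaves its group empty. Low read numbers limit Inhbb, Acvr2b and Fst.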

Other observations

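The 17 promoters with 3 or more homeodomain cores were matched by symbol to measured genes only, and 4 such genes were found. Besides Inhba these were Sp5 (3.79, 2.09, 0.131 and 0 FPKM, differences -2.08 and -1.63), Vldlr (3.48, 2.74, 1.49 and 0.705 FPKM, -0.85 and -1.13) and Atp5b (333, 386, 295 and 200 FPKM, -0.18 and -0.95). Sp5 reached a mean of 1 FPKM only through the control libraries. The count of promoters was made after the letters of the Inhba region had been seen, and whether such promoters go with lower levels was not tested.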
